A study of Mus musculus with 16 samples.

Results

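Placental differentiation genes were followed in mouse stem cells of embryonic and of trophoblast kind, grown apart or assembled with each other, with and without BMP4. The 9 genes, taken by name, were Plac1, Gcm1, Syna, Synb, Pparg, Dlx3, Ascl2, Hand1 and Esx1, out of 31663 entries in the deposited expression table, and each had 1 entry. Of these, 7 reached 1 FPKM (fragments scaled by transcript length and mapped total) in 2 or more libraries and entered the tests, which covered 13406 entries. Syna and Synb did not.

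The study made 16 libraries by Smart-seq2, a protocol that copies the full length of RNA from very few cells, each from a single picked colony, with 2 libraries in each of 8 groups. Green iPSC (induced pluripotent stem cells carrying GFP) and red TSC (named trophectoderm stem cells in the labels, carrying RFP) grew alone, or were mixed so that they built a structure with a green and a red part. Structures were picked under the fluorescence microscope and pulled apart by hand, so the assembled iPSC and the assembled TSC were sequenced separately. All groups shared 5% Matrigel, 12.5 ng/ml of FGF4 and 500 ng/ml of heparin, and all were collected on day 3. In 4 of the groups (iPSC, TSC, assembled iPSC and assembled TSC) BMP4 was present for the last 24 hours (its dose is not given in the labels), and the same 4 kinds of culture without it are called untreated below. The labels name no mouse strain, sex or number of cell lines and do not say whether both libraries of a group stem from separate cultures. The p-values therefore cover the spread between the libraries at hand, which may be technical.

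The mouse placenta is built by trophoblast, which stays a stem cell under FGF4 and turns into several cell types without it. In the labyrinth, where mother and embryo exchange nutrients, trophoblast cells fuse into a syncytium, and next to it lie the spongiotrophoblast and the polyploid giant cells that border the maternal tissue. Each of these fates has known regulators. Gcm1 is a transcription factor that starts branching of the labyrinth and fusion, and Syna and Synb are envelope proteins of old retroviruses that fuse the cells. Dlx3, a homeobox factor, and Pparg, a nuclear receptor for fatty acids, are both needed for the labyrinth, and Esx1 is an X-linked homeobox factor of the same layer. Ascl2 and Hand1 are basic helix-loop-helix (bHLH) factors with opposed roles: Ascl2 maintains the spongiotrophoblast and its precursors, and Hand1 drives giant cell formation. Plac1 is an X-linked gene of the trophoblast surface. BMP4 is a signal that the early embryo exchanges between embryonic and extraembryonic tissue.

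Promoters are shown for the genes on which the results turn and for which a sequence was at hand, because Hand1 and Ascl2 are bHLH factors and such factors bind the E-box, the letters CANNTG, which read the same on both strands. The sequences are from RefSeq on build GRCm38.p6, each with the 250 bases before a transcription start, 5′ to 3′ on the gene's strand, with every E-box in capitals. Plac1 has starts at 2 places, Pparg at 3, and Ascl2 and Esx1 at 1 each. Plac1 start 1 covers chrX:53240111-53240360 and Plac1 start 2 chrX:53114406-53114655, Ascl2 covers chr7:142969265-142969514 and Esx1 chrX:137120327-137120576, all on the minus strand. Pparg start 1 covers chr6:115360894-115361143, start 2 chr6:115362099-115362348 and start 3 chr6:115421816-115422065, all on the plus strand.
Plac1 start 1: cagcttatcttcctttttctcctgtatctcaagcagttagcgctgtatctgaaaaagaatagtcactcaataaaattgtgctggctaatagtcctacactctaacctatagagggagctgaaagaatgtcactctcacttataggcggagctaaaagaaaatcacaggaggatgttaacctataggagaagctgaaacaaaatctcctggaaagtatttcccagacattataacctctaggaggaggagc
Plac1 start 2: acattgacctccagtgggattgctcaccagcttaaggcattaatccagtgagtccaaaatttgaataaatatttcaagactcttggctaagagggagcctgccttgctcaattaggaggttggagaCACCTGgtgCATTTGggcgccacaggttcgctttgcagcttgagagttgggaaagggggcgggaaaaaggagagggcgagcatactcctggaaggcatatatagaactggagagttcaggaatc
Pparg start 1: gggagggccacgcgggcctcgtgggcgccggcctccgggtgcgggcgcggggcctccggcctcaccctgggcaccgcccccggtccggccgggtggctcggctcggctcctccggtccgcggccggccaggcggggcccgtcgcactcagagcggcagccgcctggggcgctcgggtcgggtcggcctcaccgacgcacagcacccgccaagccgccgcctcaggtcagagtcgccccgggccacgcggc
Pparg start 2: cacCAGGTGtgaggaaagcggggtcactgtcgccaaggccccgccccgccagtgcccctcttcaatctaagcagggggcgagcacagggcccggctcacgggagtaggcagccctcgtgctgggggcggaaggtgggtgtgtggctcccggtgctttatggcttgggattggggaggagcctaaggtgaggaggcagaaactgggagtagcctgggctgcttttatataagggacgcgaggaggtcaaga
Pparg start 3: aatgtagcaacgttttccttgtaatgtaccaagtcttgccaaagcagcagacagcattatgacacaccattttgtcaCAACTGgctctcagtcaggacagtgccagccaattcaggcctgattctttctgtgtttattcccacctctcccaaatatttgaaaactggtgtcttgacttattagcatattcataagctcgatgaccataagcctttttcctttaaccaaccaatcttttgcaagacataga
Ascl2: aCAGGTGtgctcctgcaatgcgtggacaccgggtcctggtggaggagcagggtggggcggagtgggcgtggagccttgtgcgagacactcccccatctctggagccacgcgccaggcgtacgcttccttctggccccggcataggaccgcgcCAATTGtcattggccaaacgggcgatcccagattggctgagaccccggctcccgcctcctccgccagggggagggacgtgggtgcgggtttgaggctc
Esx1: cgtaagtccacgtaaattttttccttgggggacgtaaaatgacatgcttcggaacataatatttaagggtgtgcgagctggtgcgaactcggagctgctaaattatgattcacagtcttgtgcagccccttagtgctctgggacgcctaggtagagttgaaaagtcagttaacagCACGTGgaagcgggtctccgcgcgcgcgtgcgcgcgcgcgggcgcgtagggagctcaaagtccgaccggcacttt
The first Plac1 start held 0 E-boxes and the second held 2, the Pparg starts held 0, 1 and 1, Ascl2 held 2 and Esx1 held 1. An E-box occurred in 66.2% of all 32851 promoters of that length, so these letters are common and their presence is a description only. RefSeq starts were at hand for 6 of the 9 genes, with 9 promoters in all, and Dlx3, Hand1 and Synb had no entry. Short words of other factor families were searched on both strands as well. AGATAA, the word of GATA factors, occurred in 9.99% of all promoters, and of those shown in the first Plac1 start, 1 time. GGGCGG, bound by Sp factors, occurred in 32.7%, and 1 time each in the second Plac1 start, the first Pparg start and Ascl2, and 2 times in the second Pparg start. The word ATGNGGG of Gcm1 occurred in 11.3% and 1 time in Ascl2. The AP-2 word GCCNNNGGC (13.7% of all promoters) occurred 3 times in the first Pparg start. The homeobox word TAATTA (4.84%) and the TEAD word GGAATG (12.6%) were in none of the sequences shown. Of the promoters not shown, Syna held 1 AP-2 word and Gcm1 held 2 E-boxes. Matches of different words overlapped in 0 of the 9 promoters.

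Before the placental genes are described, the cells were checked against markers of their labelled type. Pou5f1, a core factor of pluripotent cells, lay at 49.5 to 326 FPKM in the 8 libraries of iPSC origin and at 0.0335 to 13.2 FPKM in the 8 of TSC origin. The library at 13.2 FPKM was replicate 2 of the untreated assembled TSC. Eomes, a core factor of trophoblast stem cells, was nearly absent from untreated TSC grown alone, at 0.219 and 0.0844 FPKM, against 11.2 to 33.8 FPKM in the 6 other libraries of TSC origin. Elf5, another such factor, lay there at 5.51 and 11.6 FPKM against 116 to 224 FPKM in those 6 libraries, and Esrrb at 0 and 0.140 FPKM against 7.79 to 28.1 FPKM. Other genes of the list of 20 trophoblast stem cell markers were highest in exactly these 2 libraries. Tfap2c lay there at 140 and 99.4 FPKM against 21.4 to 77.4 FPKM in those 6 libraries, Gata3 at 47.0 and 34.3 FPKM against 8.55 to 17.7 FPKM, Krt8 at 2932 and 1367 FPKM against 17.4 to 569 FPKM and Krt18 at 2947 and 1705 FPKM against 125 to 810 FPKM. Cdx2 (0 and 3.89 FPKM against 2.39 to 6.24 FPKM) and Tead4 (11.7 and 4.49 FPKM against 9.18 to 17.9 FPKM) had 1 library within that range. The list summed to 6243 and 3531 FPKM against 1570 to 2919 FPKM, with 10 and 11 of its genes at 1 FPKM or more against 16 to 18. The untreated TSC grown alone thus had little or no Eomes and Esrrb, less Elf5 and more of Tfap2c, Gata3 and the keratins, and every comparison below that uses them carries that difference. Replicate 2 of the assembled iPSC with BMP4 held 50.4 FPKM of Elf5, while the 7 other libraries of iPSC origin held 0 to 0.413 FPKM. This library and replicate 2 of the untreated assembled TSC, which stood out here by Elf5 and by Pou5f1, were left out together in an alternative fit. They are called the libraries of mixed lineage below, as a name for that choice only. Others held such genes too. Pluripotent markers summed to 810 FPKM in replicate 1 and 1186 FPKM in replicate 2 of untreated assembled TSC, and to 767 FPKM in replicate 2 of assembled TSC with BMP4. Replicate 2 of iPSC with BMP4 held 61.6 FPKM of Rhox6. Summed markers of fibroblasts (8 genes, 1.43 to 5.70 FPKM), of endothelium and blood (8 genes, 0.182 to 1.95 FPKM) and of primitive endoderm (12 genes, 2.28 to 14.2 FPKM) were low in all libraries. Genes of primitive endoderm that moved with assembly of the TSC or with BMP4 in TSC are given there. In TSC against iPSC grown alone 0 of 5 tested rose and 1 fell, Amn (16.2% and 20.2% of all entries). Between the untreated assembled parts 2 of 5 were higher in the TSC part, Gata4 and Afp, and 0 lower (11.1% and 5.89% of all entries). Between 10504 and 11419 genes per library reached 1 FPKM.

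The 9 genes fell into 3 patterns, which were drawn up after their values had been seen. Plac1, Pparg, Dlx3 and Ascl2 had their highest group mean in untreated TSC grown alone. Hand1 and Esx1 had theirs in the untreated assembled TSC. Gcm1, Syna and Synb stayed at or below 2.21 FPKM in every library.

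**Figure D1:**
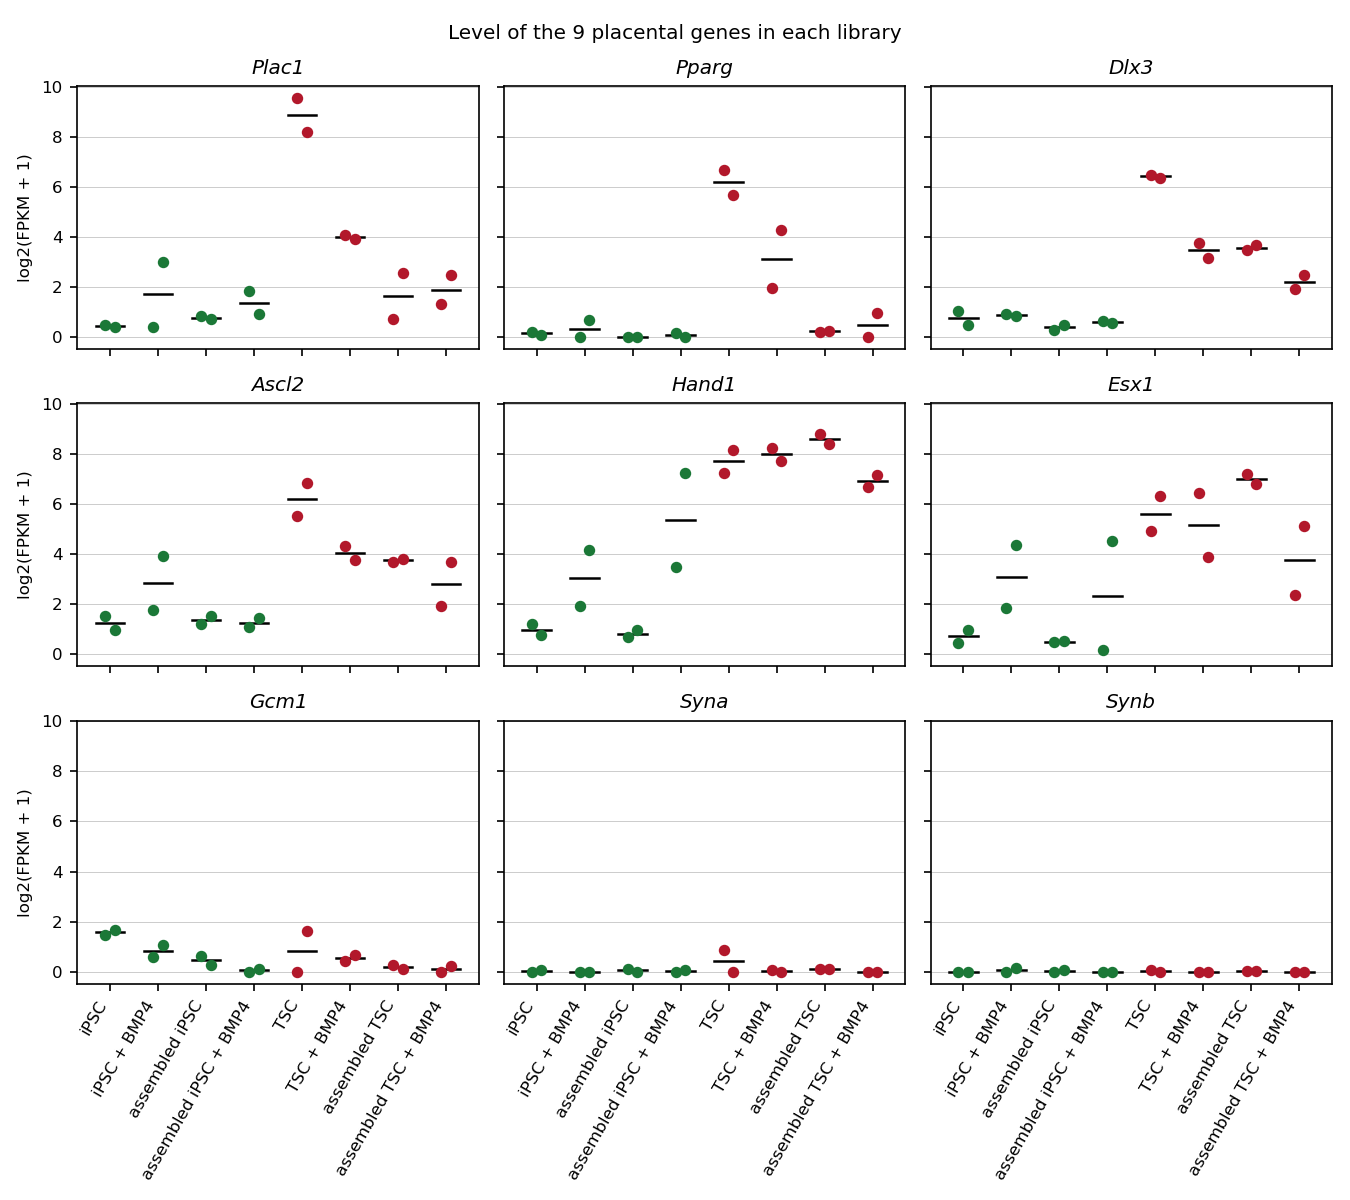
Level of each of the 9 placental genes in the 16 libraries as log2(FPKM + 1) on the vertical axis, with the 8 groups along the horizontal axis, 1 point per library and a bar at the group mean (green, iPSC origin; red, TSC origin). Plac1, Pparg, Dlx3 and Ascl2 stand highest in untreated TSC grown alone, Hand1 and Esx1 in untreated assembled TSC, and Gcm1, Syna and Synb lie near 0 throughout.

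Plac1 reached the highest level of the 9 genes, in a single group. Its level was 745 and 293 FPKM in untreated TSC grown alone, and 16.01 and 14.2 FPKM in TSC with BMP4. In the assembled TSC it was 0.640 and 4.86 FPKM untreated and 1.504 and 4.55 FPKM with BMP4. The values of untreated TSC grown alone lay above all 14 other libraries, those of TSC with BMP4 came next, and the assembled TSC reached only the range of the cells of iPSC origin. In the latter Plac1 was at 0.396 and 0.310 FPKM in iPSC, at 0.775 and 0.650 FPKM in assembled iPSC, at 0.323 and 7.03 FPKM in iPSC with BMP4 and at 2.53 and 0.871 FPKM in assembled iPSC with BMP4. Below the leading pair of groups, iPSC with BMP4, assembled TSC with BMP4, assembled TSC and assembled iPSC with BMP4 followed in that order, and each overlapped the next.

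Pparg followed nearly the same order at a lower level. It stood at 102 and 49.5 FPKM in untreated TSC grown alone and at 2.91 and 18.2 FPKM in TSC with BMP4. Elsewhere it was close to nothing, with 0.143 and 0.197 FPKM in assembled TSC, 0 and 0.957 FPKM in assembled TSC with BMP4, and 0 to 0.594 FPKM in the 8 libraries of iPSC origin. The pair of untreated TSC lay above the pair with BMP4, that pair lay above all others, and the 6 groups below it overlapped their neighbours in level. Pparg reached 1 FPKM in 4 libraries only, all of TSC grown alone. It thus entered the tests through the groups where it was high, which limits its calls below. The libraries of TSC with BMP4 differed from each other more than those of any other group on the log scale for this gene. Rxra, the receptor that pairs with Pparg on DNA, was also highest in untreated TSC grown alone, at 9.76 and 7.82 FPKM, and lay between 0.545 and 2.29 FPKM in the other 14 libraries.

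Dlx3 graded more evenly through the cells of TSC origin. It measured 87.2 and 81.0 FPKM in untreated TSC alone, 12.7 and 7.93 FPKM in TSC with BMP4, 10.0 and 11.7 FPKM in assembled TSC, and 2.80 and 4.50 FPKM in assembled TSC with BMP4. All 8 of these libraries lay above all 8 libraries of iPSC origin, which held 0.225 to 1.07 FPKM. Among the groups of TSC origin, only TSC with BMP4 and untreated assembled TSC overlapped. Its replicates were also the closest of these genes, which gave Dlx3 the smallest standard error of the 7 tested (0.30 on the log2 scale, for a difference between groups).

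Ascl2, the spongiotrophoblast factor, was the only one of the 9 genes that stayed at 0.944 FPKM or above in every library. Untreated TSC alone held 45.3 and 114 FPKM, TSC with BMP4 19.0 and 12.6 FPKM, assembled TSC 12.0 and 13.0 FPKM, and assembled TSC with BMP4 2.84 and 12.0 FPKM. Untreated TSC alone lay above everything else, and the next 4 groups in order of level, which include iPSC with BMP4 at 2.42 and 14.3 FPKM, overlapped their neighbours. The remaining libraries of iPSC origin held 0.944 to 1.92 FPKM.

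Hand1, the giant cell factor, was high in all TSC and did not share the peak of the 4 genes above. Levels were 149.6 and 288 FPKM in untreated TSC alone, 301 and 211 FPKM in TSC with BMP4, 438 and 341 FPKM in assembled TSC, and 103 and 143 FPKM in assembled TSC with BMP4. Untreated assembled TSC stood above the other groups, the lone TSC with and without BMP4 overlapped, and assembled TSC with BMP4 lay below both. Among the cells of iPSC origin it held 0.604 to 1.33 FPKM without BMP4, against 2.78 and 16.8 FPKM in iPSC with BMP4 and 10.4 and 149 FPKM in assembled iPSC with BMP4. Only replicate 2 of the last group reached the range of the TSC. Hand1 is also a marker of extraembryonic mesoderm, so its level alone does not name a cell type.

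Esx1 had the same leading group as Hand1, with wide spreads elsewhere. It measured 145 and 109 FPKM in untreated assembled TSC, 29.4 and 78.2 FPKM in untreated TSC alone, 84.9 and 13.8 FPKM in TSC with BMP4, and 4.24 and 33.7 FPKM in assembled TSC with BMP4. The untreated assembled TSC lay above all others, and every following group overlapped the next in level. In the cells of iPSC origin it held 0.385 to 0.956 FPKM without BMP4, 2.65 and 19.4 FPKM in iPSC with BMP4, and 0.140 and 21.8 FPKM in assembled iPSC with BMP4. Its standard error was the largest of the 7 (1.28 on the log2 scale).

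The fusion genes were hardly detected. Gcm1 was highest in untreated iPSC, at 1.78 and 2.21 FPKM, and measured 0 and 2.10 FPKM in untreated TSC alone. The higher TSC library thus lay between the iPSC libraries and the lower one below both. The other 12 libraries held 0 to 1.08 FPKM. Syna was listed at 0 in 9 of the 16 libraries and peaked at 0.838 FPKM in replicate 1 of untreated TSC alone, whose partner library was listed at 0. Synb was listed at 0 in 9 libraries too and reached at most 0.102 FPKM. Neighbouring groups overlapped throughout the order of level of all 3 genes. Depth is unknown in a table of FPKM, so a listed 0 has no known upper limit and may be a failed estimate. Markers of finished placental cell types were alike: Tpbpa, the classical spongiotrophoblast marker, and the giant cell hormones Prl3d1 and Prl3b1 were listed at 0 in all 16 libraries, as were Tpbpb, Prl8a8, Prl8a9, Ctsq, Cts7 and Cts8. Prl2c2, another giant cell hormone, was listed at 4.41 FPKM in replicate 1 of untreated TSC alone and at 0 in the 15 others. Smart-seq2 does not mark the strand of the RNA, and in RefSeq a non-coding gene overlaps Plac1 (Gm35988), Hand1 (Gm32915) and Synb (Gm41197) and a microRNA lies within Syna (Mir7228), whose reads could not be told apart from theirs.

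The first comparison asked which placental genes set TSC apart from iPSC when each grew alone without BMP4. Of the 7 tested genes 6 were higher in TSC and 0 lower, against 16.2% of all 13406 tested entries called higher and 20.2% called lower (36.4% in all). The median difference of the 7 was 5.64 on the scale of log2(FPKM + 1), that of all entries -0.11. Plac1 rose the most, by 8.44 ± 0.78 (SE; adjusted p = 1.49e-05, limma), followed by Hand1 by 6.71 ± 0.91 (adjusted p = 0.000162) and Pparg by 6.02 ± 0.59 (adjusted p = 2.14e-05). Dlx3 rose by 5.64 ± 0.30 (adjusted p = 6.04e-07), Ascl2 by 4.95 ± 0.67 (adjusted p = 0.000159) and Esx1 by 4.90 ± 1.28 (adjusted p = 0.00991). In all 6 both TSC libraries lay above both iPSC libraries, as for 29.7% of all entries. Gcm1 differed by -0.76 ± 0.41 (adjusted p = 0.166), and its libraries overlapped between TSC and iPSC. In bulk libraries, fewer cells of a type and less RNA per cell cannot be told apart, here and in all that follows. Esx1 lost the call without replicate 1 of iPSC (4.65, adjusted p = 0.0577), without replicate 2 of TSC (4.21, adjusted p = 0.0673) and with no filter on low values (adjusted p = 0.0748). Gcm1 passed as lower without replicate 2 of TSC (-1.58, adjusted p = 0.00359) and after upper quartile rescaling (-1.04, adjusted p = 0.0305).

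When the same comparison was made within the untreated assembled structures, fewer of the genes told the parts apart. Higher in the TSC part were 4 of 7 and lower 0, against 11.1% and 5.89% of all entries (16.9% in all). Hand1 rose by 7.77 ± 0.91 (adjusted p = 0.000503), Esx1 by 6.49 ± 1.28 (adjusted p = 0.00482), Dlx3 by 3.18 ± 0.30 (adjusted p = 0.000243) and Ascl2 by 2.37 ± 0.67 (adjusted p = 0.0296), each with its libraries apart, as 37.8% of all entries had them in that direction. Plac1 differed by 0.86 ± 0.78 (adjusted p = 0.502), and its libraries overlapped. Pparg differed by 0.23 (adjusted p = 0.842) and Gcm1 by -0.27 (adjusted p = 0.71). The call for Ascl2 was fragile: it was lost when any of the 4 libraries was left out (2.21 without replicate 1 and 2.54 without replicate 2 of assembled iPSC, 2.42 without replicate 1 and 2.32 without replicate 2 of assembled TSC, adjusted p from 0.0977 to 0.136), without both libraries of mixed lineage (adjusted p = 0.119) and with no filter (adjusted p = 0.154). Esx1 lost the call with no filter (adjusted p = 0.0532), and Plac1 turned to -0.06 without replicate 2 of assembled TSC.

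Assembly itself was read from the untreated TSC, as the assembled part minus the cells grown alone. Of the 7 genes 4 were lower in the assembled part and 0 higher, where 10.2% of all entries were called lower and 9.01% higher (19.2% in all), and the median was -2.44 against 0.03. Plac1 fell by 7.24 ± 0.78 (adjusted p = 0.000212) and Pparg fell by 5.95 ± 0.59 (adjusted p = 0.000152). Dlx3 fell by 2.84 ± 0.30 (adjusted p = 0.000212) and Ascl2 fell by 2.44 ± 0.67 (adjusted p = 0.0249). For these 4 genes both assembled libraries lay below both libraries grown alone, as for 27.2% of all entries. Hand1 and Esx1 did not pass the test, with differences of 0.89 ± 0.91 (adjusted p = 0.538) and 1.37 ± 1.28 (adjusted p = 0.494), and both assembled libraries lay above both lone ones, as they did for 28.6% of all entries. Gcm1 differed by -0.63 (adjusted p = 0.308). Ascl2 lost the call without replicate 2 of TSC (-1.78, adjusted p = 0.153), without replicate 1 (-2.39, adjusted p = 0.112) or 2 (-2.49, adjusted p = 0.0889) of assembled TSC, without both libraries of mixed lineage (adjusted p = 0.0958) and with no filter (adjusted p = 0.134), and Gcm1 passed without replicate 1 of TSC (-1.45, adjusted p = 0.0131). The stem cell factors moved as well: Eomes rose by 4.09 ± 0.35 (adjusted p = 6.44e-05) and Elf5 by 3.92 ± 1.12 (adjusted p = 0.0283) in the assembled part. Gapdh, a common reference gene, rose by 1.02 ± 0.24 (adjusted p = 0.0123), and Actb differed by 0.24 (adjusted p = 0.568). Markers of other cell types moved too, though Sox2, named among them, is also in the list of trophoblast stem cell markers. Of 12 genes of pluripotent cells 4 rose and 0 fell (median 1.23), namely Pou5f1 by 2.25 ± 0.65, Sox2 by 1.97 ± 0.61, Dppa4 by 1.41 ± 0.34 and Lin28a by 1.05 ± 0.32, and the list summed to 205 and 302 FPKM in the lone and 810 and 1186 FPKM in the assembled TSC. Of 5 tested genes of primitive endoderm 2 rose and 0 fell, Dab2 by 1.44 ± 0.47 and Gata4 by 1.42 ± 0.29, with sums of 3.15 and 2.28 FPKM lone and 9.84 and 8.64 FPKM assembled, where Sox17 and Ttr were listed at 0. Of 2 tested fibroblast genes Thy1 rose by 1.09 ± 0.27 and Twist2 fell by 1.19 ± 0.34. The part of these genes in the result was not tested.

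**Figure D2:**
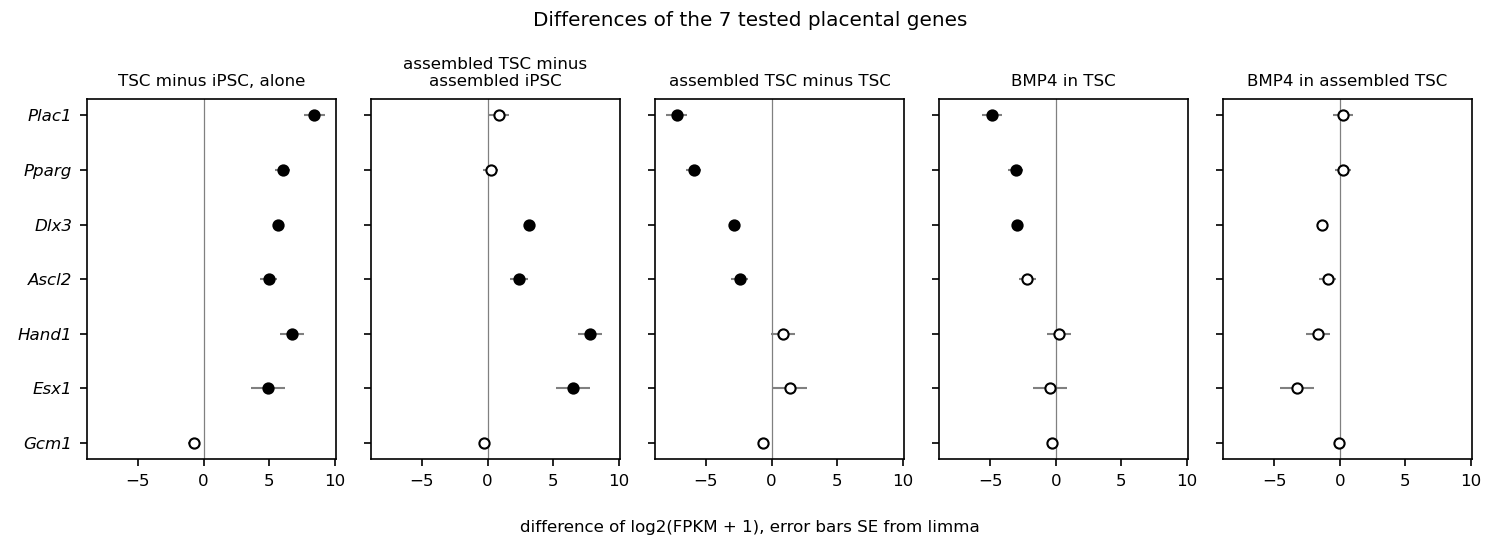
Difference of the group means of log2(FPKM + 1) for the 7 tested placental genes (horizontal axis) in 5 comparisons, with the SE from limma as error bars, filled where the adjusted p is under 0.05. Plac1 stands at 8.44 in the first panel, -7.24 in the third and -4.86 in the fourth, panels that share the untreated TSC grown alone, and no gene is filled for BMP4 in assembled TSC.

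The effect of BMP4 in TSC, that of assembly, the interaction below and the first comparison share the untreated TSC grown alone, so their values are not independent. In TSC grown alone, 3 of the 7 genes fell with BMP4 and 0 rose, where 5.74% of all entries were called lower and 6.39% higher (12.1% in all). Plac1 fell by 4.86 ± 0.78 (adjusted p = 0.00233), Pparg fell by 3.06 ± 0.59 (adjusted p = 0.00676) and Dlx3 fell by 2.94 ± 0.30 (adjusted p = 0.000137). Ascl2 differed by -2.15 ± 0.67 and just missed the threshold (adjusted p = 0.0551), with both treated libraries below both untreated ones, as for 22.5% of all entries. Hand1, at 0.28 ± 0.91 (adjusted p = 0.895), Esx1, at -0.46 ± 1.28 (adjusted p = 0.869), and Gcm1, at -0.26 (adjusted p = 0.737), overlapped between the groups. Here too Eomes rose, by 3.71 ± 0.35 (adjusted p = 7.95e-05), and Elf5 rose by 3.97 ± 1.12 (adjusted p = 0.0363). Of the pluripotent genes 3 of 12 rose and 0 fell (list median 0.09). These were Sox2, which is also in the trophoblast stem cell list, by 2.52 ± 0.61, Dppa4 by 1.25 ± 0.34 and Lin28a by 1.07 ± 0.32. The pluripotent list summed to 495 and 251 FPKM in TSC with BMP4, with Fgf4, Fgf5 and Otx2 listed at 0. Of the 5 tested genes of primitive endoderm 3 rose and 0 fell, Dab2 by 2.75 ± 0.47, Amn by 1.77 ± 0.47 and Gata4 by 1.04 ± 0.29, with sums of 10.96 and 14.03 FPKM and Sox17, Apoa1 and Ttr listed at 0. The part of these genes in the result was not tested. Pparg lost the call without replicate 1 of TSC with BMP4 (-1.91, adjusted p = 0.0515), at a pseudocount of 0.1 (adjusted p = 0.0947) and with no filter (adjusted p = 0.0554). Ascl2 gained one without replicate 1 of untreated TSC (-2.81, adjusted p = 0.0458), after quantile normalization (adjusted p = 0.0418), with a block for the replicate number (adjusted p = 0.0405) and in a fit of the 2 groups alone (adjusted p = 0.0215).

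In the assembled TSC, BMP4 passed the test for 0 of the 7 genes, while 0.5% of all entries were called. At an unadjusted p under 0.05, limma gave Dlx3 and Esx1. Dlx3 differed by -1.37 ± 0.30 (adjusted p = 0.0824), Hand1 by -1.66 ± 0.91 (adjusted p = 0.695) and Esx1 by -3.24 ± 1.28 (adjusted p = 0.433), and for these 3 both treated libraries lay below both untreated ones, as for 20.9% of all entries. Ascl2 differed by -0.93 (adjusted p = 0.816), Plac1 by 0.27, Pparg by 0.26 and Gcm1 by -0.07, and their libraries overlapped.

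Whether BMP4 acted differently in assembled TSC than in TSC alone was tested by the interaction term. It was positive past the threshold for 1 of the 7 genes, Plac1 (5.13 ± 1.10, adjusted p = 0.0417), and negative for 0, where 0.738% of all entries were called positive and 1.01% negative (1.75% in all). For Plac1 the BMP4 effect was -4.86 in TSC alone and 0.27 in the assembled part, where the untreated libraries already stood at 0.640 and 4.86 FPKM. Pparg gave 3.32 ± 0.84 (adjusted p = 0.0665) and Dlx3 1.57 ± 0.43 (adjusted p = 0.0837), Ascl2 1.22, Gcm1 0.19, Hand1 -1.94 and Esx1 -2.77 (adjusted p from 0.47 to 0.913). The call for Plac1 did not stand firmly. It was lost without replicate 1 of untreated TSC (4.46, adjusted p = 0.0793), replicate 1 of untreated assembled TSC (4.21, adjusted p = 0.152), replicate 1 (5.21, adjusted p = 0.115) or 2 (5.05, adjusted p = 0.0557) of TSC with BMP4, or replicate 1 (5.70, adjusted p = 0.0706) or 2 (4.56, adjusted p = 0.0996) of assembled TSC with BMP4. It was also lost with a block for the replicate number (adjusted p = 0.0513), after upper quartile rescaling (adjusted p = 0.0556), at a pseudocount of 0.1 (adjusted p = 0.11) and with no filter (adjusted p = 0.18), and Pparg passed without replicate 2 of TSC with BMP4 (4.46, adjusted p = 0.00928).

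With BMP4 in both, the assembled TSC minus the TSC grown alone passed for 0 of the 7 genes and for 0.298% of all entries. Pparg differed by -2.63 ± 0.59 (adjusted p = 0.0953), Plac1 by -2.11 ± 0.78 (adjusted p = 0.24), Dlx3 by -1.27 ± 0.30 (adjusted p = 0.11), Ascl2 by -1.22 (adjusted p = 0.432), Hand1 by -1.05 (adjusted p = 0.655) and Gcm1 by -0.44 (adjusted p = 0.682). In these 6 both assembled libraries lay below both lone ones, as for 24.8% of all entries, and Esx1 (-1.40, adjusted p = 0.673) overlapped. Unadjusted p was under 0.05 in limma for Plac1, Pparg and Dlx3, and without replicate 1 of TSC with BMP4 Pparg passed (-3.78, adjusted p = 0.0112).

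Among the cells of iPSC origin none of the 7 genes passed the test in any of 3 comparisons. Assembled iPSC minus iPSC alone called 11.8% of all entries and none of the genes. Gcm1 differed by -1.13 ± 0.41 (adjusted p = 0.0915), Dlx3 by -0.38, Esx1 by -0.22, Hand1 by -0.17, Pparg by -0.15, Ascl2 by 0.14 and Plac1 by 0.34. Gcm1 alone had an unadjusted p under 0.05 in limma, and it passed when only these 2 groups were fitted (adjusted p = 0.022).

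BMP4 called almost nothing in the iPSC, 0.0597% of all entries grown alone and 0.00746% in the assembled part, yet single libraries stood out. In iPSC alone Esx1 differed by 2.39 ± 1.28 (adjusted p = 0.867), Hand1 by 2.04 ± 0.91 (adjusted p = 0.766) and Ascl2 by 1.61 ± 0.67 (adjusted p = 0.717), with both treated libraries above both untreated ones, as for 27.6% of all entries. Gcm1 differed by -0.75 ± 0.41 (adjusted p = 0.867), with both treated libraries below both untreated ones, as for 18.7% of all entries. Plac1 (1.27), Pparg (0.19) and Dlx3 (0.11) overlapped between the groups. Hand1 and Ascl2 had an unadjusted p under 0.05 in limma. The 3 higher values rested mostly on replicate 2, which held 16.8 FPKM of Hand1, 19.4 FPKM of Esx1, 14.3 FPKM of Ascl2 and 7.03 FPKM of Plac1, where replicate 1 held 2.78, 2.65, 2.42 and 0.323 FPKM. The same library held 61.6 FPKM of Rhox6, 11.2 FPKM of Gata2 and 70.3 FPKM of Mixl1, a primitive streak factor, against 2.91, 2.86 and 18.6 FPKM in replicate 1, but 0.283 FPKM of Elf5 and 0.414 FPKM of Esrrb. The part of these genes in the result was not tested.

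In the assembled iPSC, Hand1 differed by 4.54 ± 0.91 with BMP4 (adjusted p = 0.24, unadjusted p = 0.000269, limma), and both treated libraries lay above both untreated ones, as for 22.3% of all entries. No other placental gene had an unadjusted p under 0.05 there. The 2 treated libraries were unlike. Replicate 2, with 149 FPKM of Hand1, also held 50.4 FPKM of Elf5, 213.5 FPKM of Igf2, 181 FPKM of Rhox6, 7.40 FPKM of Esrrb and 21.8 FPKM of Esx1, and only 9.40 FPKM of Mixl1. Replicate 1, with 10.4 FPKM of Hand1, held 0.193 FPKM of Elf5, 6.46 FPKM of Igf2, 3.70 FPKM of Rhox6, Esrrb listed at 0 and 0.140 FPKM of Esx1, beside 214 FPKM of Mixl1. Other trophoblast genes did not follow that order, since replicate 1 held more than replicate 2 of Gata3 (12.5 and 6.02 FPKM), Krt8 (324 and 107 FPKM), Cdx2 (2.46 and 1.25 FPKM) and Peg10 (39.9 and 9.61 FPKM). The 20 trophoblast stem cell markers summed to 936 FPKM in replicate 1 and 791 FPKM in replicate 2, with 13 and 18 of them at 1 FPKM or more. The 15 genes in the table for primitive streak and extraembryonic mesoderm, which include Hand1 and share Eomes and Bmp4 (90.5 and 20.5 FPKM) with those markers, summed to 743 and 307 FPKM. The part of these genes in the result was not tested. Without replicate 1, Hand1 passed the test (6.40, adjusted p = 0.00189), and without replicate 2 or both libraries of mixed lineage it was 2.69, with an adjusted p of 0.173 in the latter fit, where Esx1 turned from 1.85 to -0.31. Plac1, Dlx3, Pparg, Gcm1 and Ascl2 lay between -0.39 and 0.59.

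**Figure D3:**
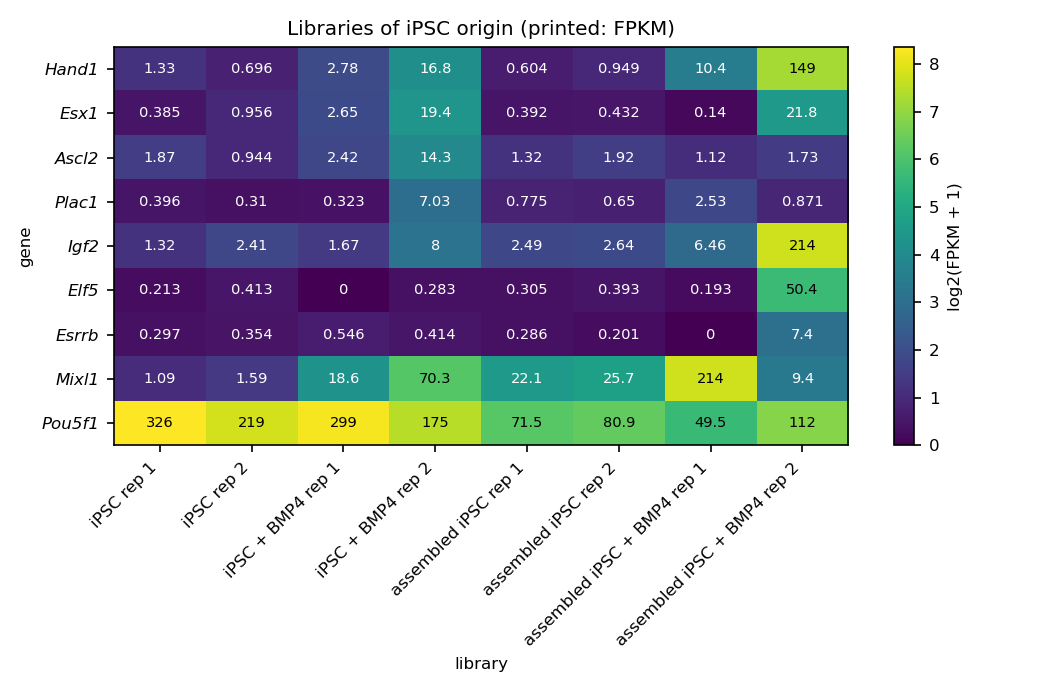
Levels in the 8 libraries of iPSC origin (columns) for 4 placental genes and, below them, 2 trophoblast stem cell factors, Igf2, the streak factor Mixl1 and the pluripotency factor Pou5f1 (rows), coloured by log2(FPKM + 1) with the FPKM printed in each cell. Hand1 stands at 10.4 and 149 FPKM in the assembled iPSC with BMP4, the first beside 214 FPKM of Mixl1 and the second beside 50.4 FPKM of Elf5.

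The other genes of the pathways were taken from lists named for their roles, and their counts stand beside the shares of all tested entries called higher and lower in the same comparison. Among 24 genes of syncytium and labyrinth 18 were tested. In TSC against iPSC grown alone 9 rose and 2 fell (16.2% and 20.2% of all entries), with Tfap2c, a trophoblast transcription factor, up by 5.27 ± 0.39 and Tfeb, which the labyrinth needs for its vessels, up by 4.66 ± 0.37, while Ly6e, the receptor for Syna, fell by 2.38 ± 0.42. With assembly of the TSC 1 rose and 7 fell (9.01% and 10.2% of all entries), and here Ly6e rose by 2.21 ± 0.42 and Tfap2c fell by 2.27 ± 0.39. With BMP4 in TSC alone 1 rose and 5 fell (6.39% and 5.74% of all entries), among them Tfeb (-1.96 ± 0.37) and Slc2a1, a glucose transporter (-1.73 ± 0.27). The median of the list was 0.94, -0.56 and -0.43 in these 3 comparisons. Ly6e, at 11.8 to 73.3 FPKM in the cells of TSC origin, stood beside at most 0.838 FPKM of Syna.

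Among 18 genes of spongiotrophoblast and glycogen cells 13 were tested. In TSC against iPSC 10 rose and 1 fell (median 5.03; 16.2% and 20.2% of all entries), led by the homeobox genes Rhox6 (10.30 ± 1.38) and Rhox9 (9.60 ± 1.35) and by Igf2, an imprinted growth factor (8.76 ± 1.07). Between the assembled parts 9 rose and 0 fell (median 2.24; 11.1% and 5.89% of all entries), here with Igf2 first (8.36 ± 1.07). With assembly of the TSC 0 rose and 4 fell (median -1.41; 9.01% and 10.2% of all entries), among them the imprinted genes Cdkn1c, an inhibitor of the cell cycle (-5.65 ± 0.69), Peg10 (-3.38 ± 0.54) and Phlda2 (-2.63 ± 0.78). With BMP4 in TSC 0 rose and 4 fell (median -1.49; 6.39% and 5.74% of all entries), with Cdkn1c at -3.03 ± 0.69, Peg10 at -1.81 ± 0.54 and Slc38a4, an amino acid transporter, at -1.63 ± 0.31. Cdkn1c went from 480 and 173 FPKM in untreated TSC alone to 16.2 and 72.4 FPKM with BMP4 and to 2.26 and 9.13 FPKM in the assembled part.

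The giant cell list held 18 genes, of which 11 were tested. In TSC against iPSC 5 rose and 0 fell, 5 of 11 called where 36.4% of all entries were (16.2% higher, 20.2% lower), among them Gata2 (5.41 ± 0.67), Sct, which encodes secretin (5.30 ± 0.95), and Gata3 (5.11 ± 0.48). With assembly of the TSC 1 rose and 4 fell (9.01% and 10.2% of all entries), with Gata2 at -3.38 ± 0.67, Sct at -2.98 ± 0.95 and the nuclear receptor Nr6a1 at -1.86 ± 0.40. With BMP4 in TSC alone 0 rose and 2 fell (6.39% and 5.74% of all entries), Nr6a1 (-2.73 ± 0.40) and Socs3 (-1.74 ± 0.47). Hand1 itself did not pass in either of the latter comparisons. No test compared it with the list.

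Partners and inhibitors of the bHLH factors, a list of 10 genes with 9 tested, hold the proteins that keep Ascl2 and Hand1 active or silent. In TSC against iPSC 1 rose and 1 fell (16.2% and 20.2% of all entries). With assembly of the TSC 1 rose and 1 fell (9.01% and 10.2% of all entries). With BMP4 in TSC alone 1 rose and 0 fell (6.39% and 5.74% of all entries). In the interaction 0 were positive and 1 negative (0.738% and 1.01% of all entries). Id2, an inhibitor of bHLH factors and a common BMP target, was the gene of this list that rose. The differences of Id2 were 2.00 ± 0.42 in TSC against iPSC, 2.84 ± 0.42 with assembly of the TSC and 2.72 ± 0.42 with BMP4 in TSC. Between the assembled parts Id2 was higher and Twist1 lower in the TSC part (11.1% and 5.89% of all entries). Assembly raised Id2 in iPSC too, from 52.3 and 34.2 FPKM to 132 and 181 FPKM, as the 1 gene of 9 called there (11.8% of all entries). Its level was 110 and 270 FPKM in untreated TSC alone and 854 to 1538 FPKM in the 6 other libraries of TSC origin, so the 2 groups of libraries stood apart. The interaction of BMP4 with assembly was negative for Id2 (-3.00 ± 0.59, adjusted p = 0.0292). Mdfi, an inhibitor of Ascl2 that promotes giant cells, fell with assembly of the TSC (-1.35 ± 0.44, adjusted p = 0.0467). Twist1 fell in TSC against iPSC (-0.74 ± 0.25, adjusted p = 0.038). It reached 1 FPKM only in replicate 2 of untreated iPSC and in both libraries of untreated assembled iPSC, which limits its calls.

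Partners and targets of Pparg, 18 genes with 15 tested, were split. In TSC against iPSC 6 rose and 1 fell (16.2% and 20.2% of all entries), among them Fabp3, a fatty acid carrier (5.64 ± 0.95), and Cpt1a, which brings fatty acids into mitochondria (3.51 ± 0.67). With assembly of the TSC 1 rose and 3 fell, 4 of 15 called where 19.2% of all entries were (9.01% higher, 10.2% lower). Cpt1a fell by 3.28 ± 0.67 and Rxra fell by 2.12 ± 0.28, while Fabp5 rose by 1.56 ± 0.37. Cpt1a reached 1 FPKM only in both libraries of untreated TSC grown alone and in replicate 2 of TSC with BMP4. It thus entered the tests through the groups where it was high, which limits its calls. With BMP4 in TSC alone Rxra fell by 1.72 ± 0.28 and Pdk4 rose by 1.26 ± 0.34. The call for Pdk4 is limited in the same way. It reached 1 FPKM only in TSC with BMP4 (1.93 and 1.04 FPKM) and in replicate 2 of assembled iPSC with BMP4 (1.14 FPKM). Fabp3 lay at 1689 to 4767 FPKM in all 8 libraries of TSC origin, over which Pparg went from 0 to 102 FPKM. The interaction was positive for Rxra (1.79 ± 0.39, adjusted p = 0.0454).

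Trophoblast stem cell genes, 20 with 19 tested, moved in both directions. With assembly of the TSC 8 rose and 4 fell (median 1.14; 9.01% and 10.2% of all entries), with Ddah1 (4.62 ± 0.52), Eomes and Bmp4, the gene of the added signal (4.04 ± 0.82), in front, while Krt8, Tfap2c, Gata3 and Krt18 fell. Their summed level was 6243 and 3531 FPKM in the lone and 2447 and 2848 FPKM in the assembled TSC, where the keratins Krt8 and Krt18 make up most of the first sums. With BMP4 in TSC alone 9 rose and 2 fell (median 1.29; 6.39% and 5.74% of all entries), led by Nr0b1 (5.89 ± 0.69), Ddah1 (5.17 ± 0.52) and Elf5, while Krt18 and Ets2 fell. In TSC against iPSC grown alone 7 rose and 3 fell (16.2% and 20.2% of all entries), with Ddah1 and Eomes among the latter. Between the untreated assembled parts, a comparison without the lone TSC, 13 were higher and 1 lower in the TSC part (median 2.96; 11.1% and 5.89% of all entries). Elf5, Fgfr2 and Ddah1 differed the most there. These lists were set beside all tested entries and compared with no other genes, and each includes genes with more than 1 role.

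How the placental genes moved with each other was read within the 8 libraries of TSC origin, as Pearson's r of log2(FPKM + 1), a description over libraries that share 4 groups. Plac1 went with Pparg (r = 0.95), Dlx3 (0.91) and Ascl2 (0.85), and Dlx3 with Ascl2 (0.93). Hand1 went with Esx1 (0.89) and hardly with Plac1 or Pparg (-0.11 each). Much of the first set rested on untreated TSC grown alone. Over the 6 libraries without them Plac1 with Dlx3 came to 0.39 and Pparg with Dlx3 went from 0.83 to 0.23, while Plac1 with Pparg (0.79), Dlx3 with Ascl2 (0.84) and Hand1 with Esx1 (0.90) were less affected. In those 6 libraries Dlx3 went with Hand1 (0.93, from 0.24 over all 8) and with Esx1 (0.83, from 0.38). Ascl2 went with Hand1 as well (0.71, from 0.33). The highest r there was that of Gcm1 with Pparg (0.94, from 0.49), though Gcm1 lay under 1 FPKM in all 6. Pparg reached 1 FPKM there only in TSC with BMP4, so its r with Gcm1 and with Plac1 rests largely on that group.

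**Figure D4:**
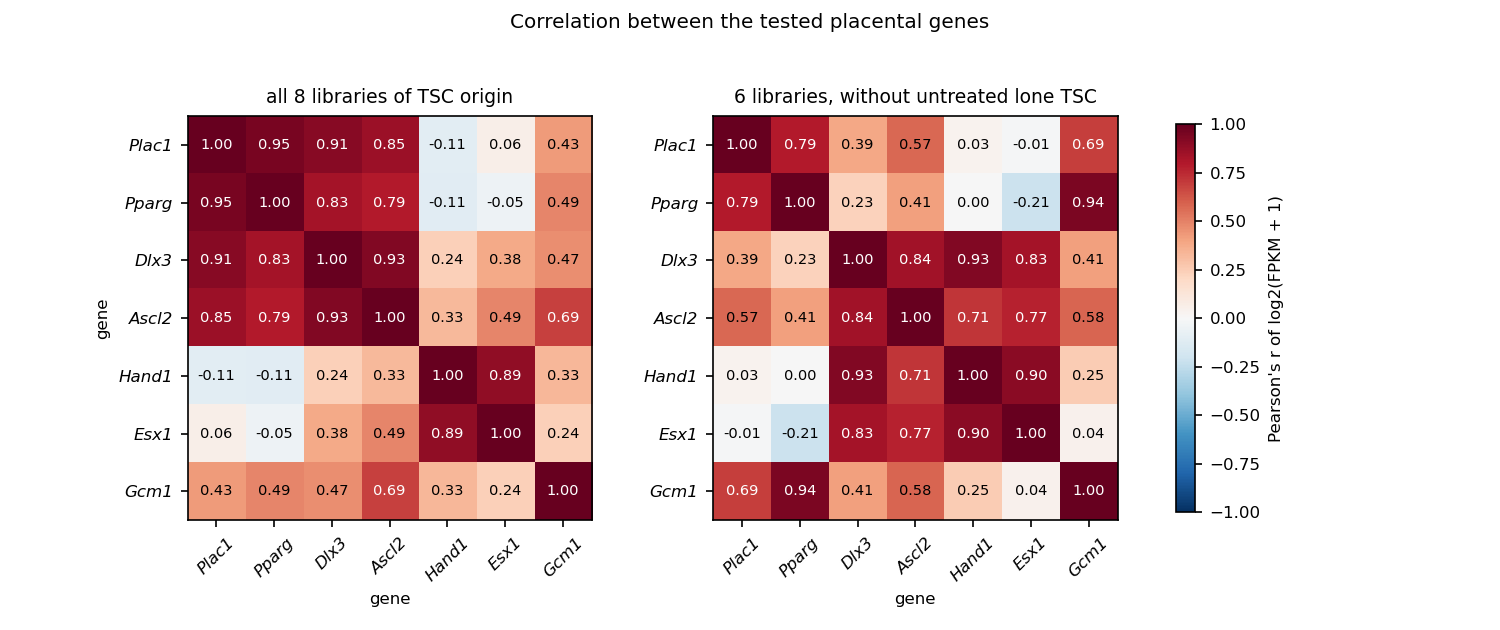
Pearson's r of log2(FPKM + 1) between the 7 tested placental genes (rows and columns) over the 8 libraries of TSC origin (left) and over the 6 that remain without untreated TSC grown alone (right), coloured from -1 to 1. Dlx3 and Hand1 stand at 0.24 on the left and at 0.93 on the right, while Hand1 and Esx1 stand at 0.89 and 0.90.

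For each tested gene the 3 named genes with the most similar level over all 16 libraries were taken, among those that reached 5 FPKM in 2 or more libraries. Most of the likeness over 16 libraries is the difference between the cells of iPSC and of TSC origin, so r within the 8 libraries of TSC origin is given in second place. Plac1 was most like Slc38a4 (0.97 and 0.99), the homeobox gene Irx4 (0.97 and 0.98) and Vgll1, a partner of TEAD factors (0.96 and 0.97). Slc38a4, for instance, stood at 386 and 304 FPKM in untreated TSC alone, 99.6 and 121 FPKM with BMP4 and 68.5 to 86.5 FPKM in the 4 libraries of assembled TSC, the same order as Plac1 with a smaller range. Pparg was nearest to Tgm2, a transglutaminase (0.97 and 0.96), Tceanc (0.96 and 0.96) and Exoc3l4 (0.96 and 0.97). Dlx3 came closest to the sugar phosphate exchanger Slc37a1 (0.98 and 0.96), Tmem120a (0.97 and 0.99) and the interferon receptor chain Ifnar2 (0.97 and 0.96).

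For Ascl2 the nearest were Scp2, a lipid carrier (0.96 and 0.95), Mtfr1l (0.95 and 0.97) and Gata2 (0.95 and 0.90). Hand1 was paired with Igf2 (0.97), Creg1 (0.96) and Tmem37 (0.96), but within the TSC origin only Tmem37 stayed close (0.84), against 0.54 for Igf2 and 0.47 for Creg1. Tmem37 measured 207 and 172 FPKM in untreated assembled TSC, 84.4 and 270 FPKM in untreated TSC alone and 67.9 and 127 FPKM in assembled TSC with BMP4. Esx1 had looser neighbours, Mien1 (0.93 and 0.83), Ap1s1 (0.93 and 0.81) and Sec22b (0.93 and 0.76). Gcm1, whose own values lay near the limit of 1 FPKM, was nearest to Traf7 (0.88 and 0.89), Ncoa4 (0.87 and 0.87) and Ptp4a3 (0.86 and 0.93).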

How the data were processed

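RNA of 16 libraries in 8 groups was made by Smart-seq2, per the labels' protocols. The authors deposited 1 table of FPKM values with 31663 entries, of which 12 share a symbol with another entry. The submitters' processing notes name CASAVA, TopHat2 and 2 genome builds, mm9 and hg19, without saying what each was for. How the FPKM values were computed, on which annotation, and how reads shared between genes were split is not given in the sources used here. Read counts and depth are unknown, so no value carries a counting interval.

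A filter kept the 13406 entries that reached 1 FPKM in 2 or more libraries. They were fitted as log2(FPKM + 1), which understates the change of low genes, by a linear model of 8 group means with 8 residual degrees of freedom (limma 3.58.1 under R 4.3.3, moderated with an intensity trend). The 10 comparisons were two-sided and adjusted by Benjamini-Hochberg over all 13406 entries of each, at a threshold of 0.05. "Rose" and "fell" are used of what passed. The script was tested on simulated data. Summaries were made in Python 3.11.15 (pandas 2.3.3, numpy 2.4.6) and plots in matplotlib 3.10.9.

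The genes described and the lists beside them were chosen with earlier results of these data known. The 7 tested genes are named in every comparison, and Syna and Synb, untested, by their levels. Of the check genes, Pou5f1, Cdx2, Eomes, Elf5, Id1, Id2, Id3, Gapdh and Actb are named where their values bear on a result. Nanog is not described. Of each other list, up to 3 genes per comparison with the largest difference past the threshold are named. Some genes of these lists are not reported here. Genes named outside this rule, such as Esrrb, Mixl1, Igf2 or Krt8 in single libraries, Rxra levels or list members beyond the 3, were chosen after their values were seen. Each result was recomputed with a pseudocount of 0.1, without the filter, after quantile normalization, after rescaling to the upper quartile, with the replicate number as a block, with only the compared groups in the fit, without both libraries of mixed lineage, and without each library in turn.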

Additional observations from a re-analysis of the deposited data

Results flagged for a closer look

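In 5 cases the same change in conditions went with unlike values of a placental gene in different cells. For Plac1 the effect of BMP4 in the assembled TSC minus that in TSC alone was 5.13 on the log2 scale and passed the test of the interaction (adjusted p = 0.0417, limma), a call that 10 of the alternatives did not keep. The other 4 are flagged only because every library of the one cell type lay on one side of its controls and every library of the other cell type on the opposite side, and the difference between them was not tested. Plac1 was 0.34 higher in assembled iPSC than in iPSC, at levels under 1 FPKM, and -7.24 in assembled TSC against TSC. With BMP4, Dlx3 differed by 0.22 in assembled iPSC, again below 1 FPKM, and by -1.37 in assembled TSC. Ascl2 differed with BMP4 by 1.61 in iPSC and by -2.15 in TSC. Hand1 differed with BMP4 by 4.54 in assembled iPSC and by -1.66 in assembled TSC. None of these values passed the test in its own comparison except that of Plac1 with assembly of the TSC.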

How the results depend on the processing

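Of 70 results for the 7 tested genes 18 were called, and 12 kept the call under every alternative run: Plac1, Pparg, Dlx3, Ascl2 and Hand1 in TSC against iPSC, Plac1, Pparg and Dlx3 with assembly of the TSC, Plac1 and Dlx3 with BMP4 in TSC, and Dlx3 and Hand1 between the assembled parts. Of 741 gene values under an alternative, 673 kept direction and side of the threshold, 28 lost a call, 11 gained one and 29 changed sign, 0 of these among called results. The cause was not tested. Depth is unknown, and 2 libraries a group limit every value.

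The order used for counts is TSC against iPSC alone, assembled TSC against assembled iPSC, assembled TSC against TSC, the same with BMP4 in both, assembled iPSC against iPSC, BMP4 in iPSC, in TSC, in assembled iPSC and in assembled TSC, and the interaction. The numbers of entries called were 4878, 2271, 2575, 40, 1585, 8, 1625, 1, 67 and 235. With no filter, which adds entries to the adjustment, they came to 1389 between the assembled parts, 1370 for assembled TSC against TSC, 1037 for assembled iPSC against iPSC, 87, 830 and 21 for BMP4 in iPSC, TSC and assembled iPSC, and 102 for the interaction. With a pseudocount of 0.1, assembled against lone TSC with BMP4 gave 7, BMP4 in iPSC 3, in assembled iPSC 2 and in assembled TSC 28. Upper quartile rescaling gave 23 for the TSC with BMP4, 1021 for assembled iPSC against iPSC, 3 for BMP4 in assembled iPSC (as did quantile normalization) and 133 for the interaction. A fit of only the groups compared gave 1154 for assembled TSC against TSC, 10 with BMP4 in both, 3396 for assembled iPSC against iPSC, 33 for BMP4 in iPSC, 512 in TSC, 33 in assembled TSC and 54 for the interaction. Without both libraries holding genes of the other lineage, assembled TSC against TSC gave 1416 and BMP4 gave 27 in assembled iPSC and 27 in assembled TSC.

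Leaving out 1 library gave, in the same order, 3045 to 4221, 901 to 1474, 1037 to 2011, 4 to 178, 6 to 745, 1 to 5, 563 to 1639, 1 to 43, 7 to 120 and 47 to 479 entries, and 5 to 6, 3 to 3, 3 to 5, 0 to 1, 0 to 0, 0 to 0, 2 to 4, 0 to 1, 0 to 0 and 0 to 1 of the 7 genes. The genes called between the assembled parts were 2 with no filter, those for assembled iPSC against iPSC 1 (Gcm1) in the fit of the groups compared, and those for the interaction 0 with a pseudocount of 0.1, no filter, upper quartile rescaling or the replicate block.

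The replicate numbers showed no pairing: replicate differences of 2 groups correlated at -0.138 to -0.0182 across genes, and no label ties equal numbers to a shared culture. With the replicate block the TSC with BMP4 gave 17 entries, the interaction 134 entries and 0 of the 7 genes, and BMP4 in TSC 4 of the 7 genes.

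Scaling moved the share of higher against lower calls. For higher and lower entries, upper quartile rescaling gave 1259 and 4155 in TSC against iPSC (2172 and 2706 before), 843 and 1288 between the assembled parts (1482 and 789), 1821 and 606 for assembled TSC against TSC (1208 and 1367), 17 and 6 with BMP4 in both (21 and 19), 369 and 652 for assembled iPSC against iPSC (279 and 1306), 1212 and 353 for BMP4 in TSC (856 and 769) and 32 and 101 for the interaction (99 and 136). Quantile normalization gave 1273 and 1180 between the assembled parts and 577 and 780 for assembled iPSC against iPSC. Under upper quartile rescaling the median of all entries went from -0.11 to -0.47, from 0.12 to -0.12 and from 0.03 to 0.25 in the first 3 comparisons and from 0.02 to 0.20 for BMP4 in TSC.

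Signs changed only for differences that passed no test. Plac1 between the assembled parts came to -0.061 without both libraries of mixed lineage, Hand1 in assembled iPSC against iPSC to 0.0095 under quantile normalization, Dlx3 with BMP4 in iPSC to -0.0069 under upper quartile rescaling, Esx1 with BMP4 in assembled iPSC to -0.31 without both libraries, and Gcm1 at a pseudocount of 0.1 to 0.25 with BMP4 in TSC and to -0.71 in the interaction. Leaving out 1 library gave Gcm1 -1.58 to 0.051 in TSC against iPSC, -1.45 to 0.18 with assembly of TSC, -1.08 to 0.55 with BMP4 in TSC, -0.18 to 0.046 with BMP4 in assembled TSC and -0.62 to 1.01 in the interaction. Plac1 ranged from -0.061 to 1.78 between the assembled parts, from -0.032 to 2.57 with BMP4 in iPSC and from -0.65 to 1.18 with BMP4 in assembled TSC. In assembled iPSC against iPSC the ranges were -0.14 to 0.42 for Ascl2, -0.40 to 0.060 for Hand1 and -0.47 to 0.028 for Esx1. With BMP4 in iPSC they were -0.15 to 0.52 for Pparg and -0.17 to 0.38 for Dlx3, in TSC -0.19 to 0.75 for Hand1 and -1.73 to 0.81 for Esx1, in assembled iPSC -0.30 to 0.068 for Ascl2 and -0.31 to 4.01 for Esx1, and in assembled TSC -0.23 to 0.74 for Pparg.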
